A study of Rattus norvegicus with 12 samples.

Results

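The members of the imprinted Dlk1-Dio3 miRNA cluster were examined in extracellular vesicles (EVs) secreted by cultured rat cells. Members were all array probes whose miRNA number belongs to a fixed list of 42 numbers from this locus, with any letter and either arm of the hairpin. The rule thus uses no measured value, although it was set with earlier results of these data known. The rule found 86 of the 727 probes. EVs were collected from Thy1 cells, from bone marrow mesenchymal cells (MSC), from small hepatocytes (SH) and from mature hepatocytes (MH), with 3 arrays for each source and 12 in all. They are called Thy1-EVs, MSC-EVs, SH-EVs and MH-EVs. In the labels the Thy1 source is given as liver stem cells, the SHs as liver progenitor cells and the MHs as parenchymal cells of the liver, and the article assigns its EV arrays to Thy1-positive mesenchymal cells. By the methods, donors were male F344/Nslc rats aged 8 to 10 weeks, the Thy1-positive cells came from livers 3 days after d-galactosamine injury, and SHs and MHs came from healthy rats aged 8 to 12 weeks. Donor and age of the MSCs were not stated. The labels give plastic dishes for Thy1 cells and MSCs, hyaluronic acid for SHs and type I collagen for MHs, whereas the methods give collagen for Thy1-positive cells. All cells spent 2 days in medium without serum before collection. Cell type, culture surface and, for Thy1-EVs, the injury thus cannot be told apart, and nothing says whether the 3 arrays of a group came from separate animals or cultures, so a p-value reflects the spread among these arrays alone.

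The Dlk1-Dio3 locus is imprinted: the protein-coding genes Dlk1, Rtl1 and Dio3 are expressed from the paternal chromosome, and the noncoding RNAs Meg3, Rtl1 antisense, Rian and Mirg from the maternal one. These noncoding RNAs carry one of the largest groups of miRNA hairpins in mammals. A hairpin yields a 5p and a 3p arm, and the seed near the 5′ end of the arm guides it to its targets. The miRNAs are best known from embryo, placenta and brain, and mice without the miR-379 to miR-410 group of hairpins show a failure of metabolic adaptation around birth, including in liver. By miRNA number and general knowledge of the locus, 11 members were assigned in or between Meg3 and Rtl1 and 9 to the Rtl1 antisense strand. To Rian 3 were assigned, and to the miR-379 to miR-410 group in Mirg 63. The RefSeq data name no host transcript, but the order of the genes there follows this assignment. MiR-299b-3p, miR-299b-5p and miR-409b lie within the miR-379 to miR-410 group on the opposite strand, so they are counted there by place and are not read from the Mirg strand.

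RefSeq mature sequences of the rat assembly GRCr8 matched 84 of the 86 members, all on chromosome 6. Each sequence is written 5′ to 3′ with the seed, bases 2 to 8, in capitals. The first set holds the 7 members detected on all 12 arrays, since the levels reported here rest on them most firmly.
miR-770-3p: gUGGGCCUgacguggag
miR-665: aCCAGGAGgcugaggucccuua
miR-370-3p: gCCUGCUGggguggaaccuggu
miR-323-5p: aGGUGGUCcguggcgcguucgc
miR-494-3p: uGAAACAUacacgggaaaccucu
miR-667-5p: cGGUGCUGguggagcagugagcac
miR-667-3p: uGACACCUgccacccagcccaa
The second set holds members whose levels differed between EV sources although they were not detected on all arrays.
miR-487b-5p: aGUGGUUAucccuguccucuucg
miR-487b-3p: aAUCGUACagggucauccacuu
miR-134-3p: cUGUGGGCcaccuagucaccaa
miR-668: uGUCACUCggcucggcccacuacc
miR-485-3p: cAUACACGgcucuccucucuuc
miR-409a-3p: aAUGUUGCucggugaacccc
The third set, for contrast, holds 5 members chosen because they were detected on no array or on 1.
miR-127-3p: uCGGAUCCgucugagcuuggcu
miR-376a-3p: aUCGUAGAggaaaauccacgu
miR-382-5p: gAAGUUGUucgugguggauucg
miR-369-3p: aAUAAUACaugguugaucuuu
miR-410-3p: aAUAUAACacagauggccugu
The 7 members of the first set have 7 different seeds. The seeds that members share are in none of these sets: GGUUGUC in miR-494-5p, miR-496-5p and miR-410-5p, AUACAAG in miR-381-3p and miR-539-3p, UGGAUAU in miR-376b-5p and miR-376c-5p, and 1 seed for each arm of miR-299a and miR-299b. The sequence of miR-299b-3p is contained whole in miR-299a-3p, and miR-376b-5p and miR-376c-5p agree at 95.2% of aligned bases, so probes of these pairs may bind both.

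A probe counted as detected when its raw intensity, the brightness of its spots, lay above the mean of the blank spots plus 2 SD. This limit was permissive, because 44.4% to 76.7% of the 675 spots without a probe lay above it on an array. The MH-EV arrays stood apart. Their first spike-in control gave 5139 to 7915 against 28678 to 32905 on the other 9 arrays, and their blank spots averaged 59.8 to 77.9 against 96.8 or more. Sources were checked by marker miRNAs. The summed log2 level of 3 hepatocyte markers, led by miR-122-5p, was 13.98 to 14.51 in MH-EVs and at most 10.69 elsewhere. That of 5 mesenchymal markers was 11.13 to 11.77 in Thy1-EVs, 11.18 to 12.37 in MSC-EVs and at most 10.44 in the others, all 5 being detected on every array of Thy1-EVs, MSC-EVs and MH-EVs. The summed hepatocyte level of SH-EVs, 9.22 to 9.88, overlapped that of Thy1-EVs, 9.35 to 10.69, although all 3 of these markers were detected on every SH-EV array and only 1 on every Thy1-EV array. That of 2 erythroid markers was 10.56 to 12.22 in Thy1-EVs and MSC-EVs and at most 7.07 in the others, with neither marker detected on an SH-EV array. For 4 leukocyte markers it was 9.45 to 9.91 in MSC-EVs, of which 3 were detected on all 3 arrays, and 8.24 to 8.96 in the other sources. For 2 endothelial markers it was 7.09 to 7.19 in SH-EVs, where neither was detected, and 7.56 to 8.24 in the others. For 5 epithelial markers it was 8.63 to 8.74 in SH-EVs and 8.31 to 8.47 in the others. The leukocyte levels thus moved with the differences of MSC-EVs reported below, and the endothelial and epithelial levels with those of SH-EVs. The erythroid levels were highest in MSC-EVs, at 11.94 to 12.22. They set MSC-EVs apart from Thy1-EVs, at 10.56 to 11.51, and both of these sources apart from SH-EVs and MH-EVs. The part of such cells in the results below was not tested.

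In no source were more than 31 of the 86 members detected on all 3 arrays. On single arrays 16, 20 and 37 of the 86 members were detected in Thy1-EVs, 8, 19 and 14 in MSC-EVs, 16, 20 and 24 in SH-EVs and 53, 43 and 39 in MH-EVs. The third Thy1-EV array thus came close to the lowest MH-EV array, and the other arrays of Thy1-EVs, MSC-EVs and SH-EVs stayed well below it. On all 3 arrays of a source, 15 members (17.4%) were detected in Thy1-EVs, 8 (9.3%) in MSC-EVs, 13 (15.1%) in SH-EVs and 31 (36.0%) in MH-EVs. For all 727 probes the shares were 29.8%, 23.1%, 33.8% and 52.1%. The cluster was therefore detected less often than the array as a whole in each source, and the order of the sources was nearly the same, with MSC-EVs lowest and MH-EVs highest. With the 95th percentile of the spots without a probe as limit, 8, 3, 8 and 18 members were detected on all 3 arrays of Thy1-EVs, MSC-EVs, SH-EVs and MH-EVs. These are 9.3%, 3.5%, 9.3% and 20.9% of the members, beside 21.6%, 14.7%, 25.9% and 38.9% of all probes. Of the 86 members, 50 exceeded this limit on no array, a count not made over all probes.

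**Figure D1:**
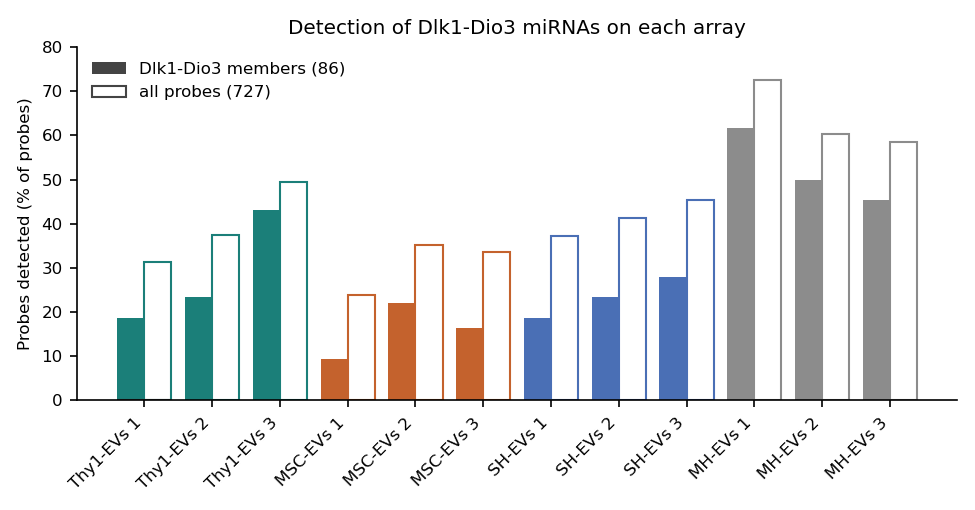
Share of probes detected on each of the 12 arrays (y axis, % of probes; x axis, array by EV source and number). Filled bars are the 86 members and open bars all 727 probes: the filled bar is the lower one on every array, and the MH-EV arrays have the highest open bars.

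Of the members, 7 (8.14%) were detected on all 12 arrays, against 150 (20.6%) of all probes. On no array were 20 of the 86 members detected, against 142 of the 727 probes. MiR-770-3p and miR-665 lie in or after Meg3, miR-370-3p in Rian, and miR-323-5p, miR-494-3p, miR-667-5p and miR-667-3p in Mirg. None came from Rtl1 antisense, where miR-433-5p and miR-127-5p went furthest with 9 arrays each. Only miR-770-3p, miR-370-3p and miR-494-3p were above the 95th percentile of the spots without a probe on all 12 arrays. For miR-665, miR-667-5p and miR-667-3p that held on 11 arrays and for miR-323-5p on 9. Detection on all 3 arrays of 1 source and not of the others occurred for 14 members in MH-EVs and for miR-487b-3p in MSC-EVs, and for no member in Thy1-EVs or SH-EVs. The same count over all probes was not made, so this is no result about the cluster. MH-EVs also had the largest share of all 727 probes on all 3 arrays, 52.1%, beside 23.1% to 33.8% in the other sources. Between the outermost members lie 14 further probes for miRNAs that the list does not hold, and 2 of them, miR-1188-3p and miR-666-5p, were detected on all 12 arrays.

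**Figure D2:**
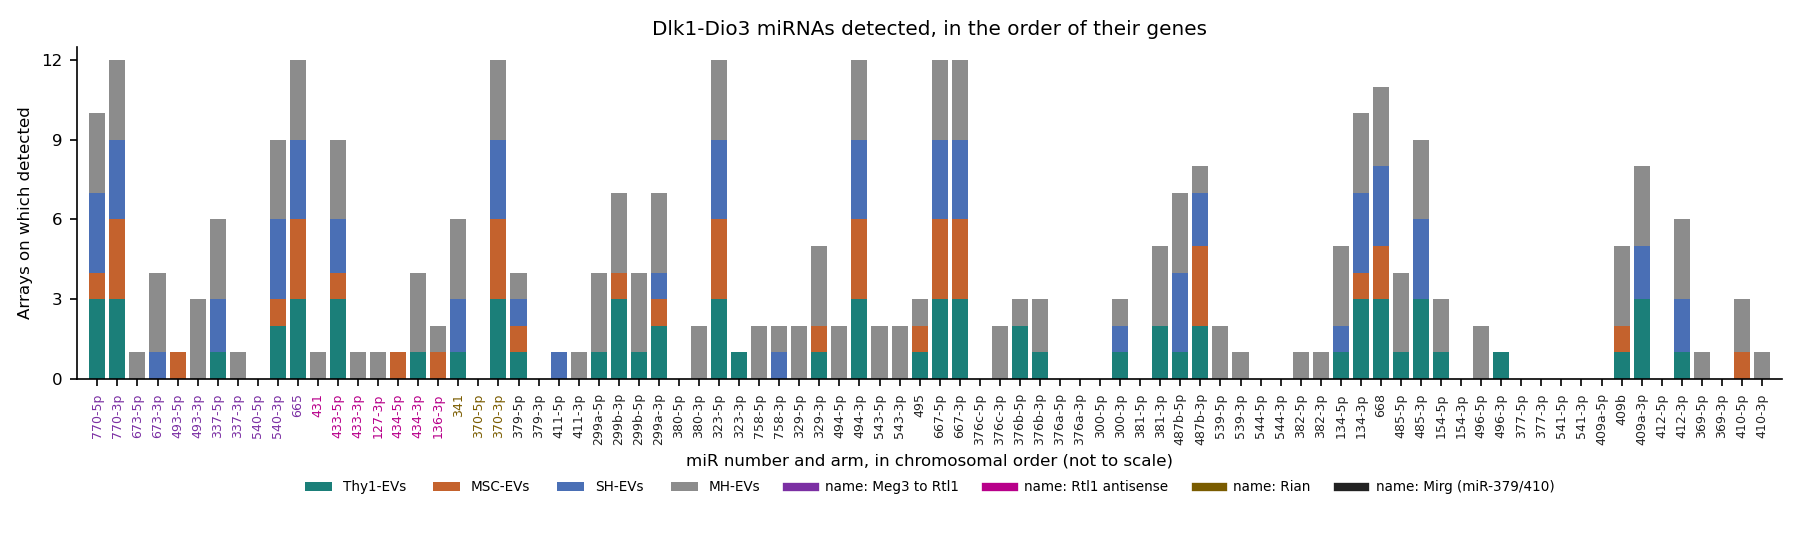
Number of arrays, of 12, on which each of the 84 members with a RefSeq position was detected (y axis), in the order of their genes on the chromosome (x axis, not to scale), stacked by EV source. The colour of a name gives the transcript assigned to its miRNA number, and the 7 bars that reach 12 arrays stand apart from each other except for both arms of miR-667.

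The arms named next were picked after their values were seen. MiR-127-3p, which is antisense to Rtl1 and represses it in mouse placenta, was detected on 1 of the 12 arrays, in MH-EVs. MiR-410-3p, miR-382-5p and miR-431 were likewise detected on 1 array, in MH-EVs. MiR-379-5p, which opens the Mirg group, was detected on 4 arrays, 1 of each source. MiR-376a-3p and miR-369-3p were detected on none, and miR-495 on 3. MiR-134-5p, which limits the growth of dendritic spines in rat neurons, was detected on 5 arrays, 3 of them of MH-EVs. Both arms of a hairpin were on the array for 40 hairpins. The 3p arm was detected on more arrays for 20 of them, the 5p arm for 10, and both arms on equally many for 10, of which 4 had neither arm detected. Large differences between arms were common: miR-370-3p was detected on 12 arrays and miR-370-5p on none, miR-323-5p on 12 and miR-323-3p on 1, and miR-494-3p on 12 and miR-494-5p on 2. MiR-667 was the only hairpin with both arms on all 12.

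Members on many arrays tended to be richer in G and C. The share of G and C in the 7 members on all 12 arrays had a median of 66.7% (43.5% to 72.7%). It was 54.8% over 24 members on 4 to 11 arrays, 47.6% over 34 members on 1 to 3 arrays and 42.9% (23.8% to 56.5%) over 19 members on none. MiR-494-3p was the exception among the 7 with 43.5%, and miR-369-3p had the lowest share of all members. Members with few detections overlapped the 7: miR-127-3p has 59.1%, as does miR-665, and miR-382-5p has a higher share than miR-494-3p. The same held outside the cluster, where the other probes on all 12 arrays had a median of 54.5% and those on no array 40.9%. This is a description over probes that share the same 12 arrays.

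**Figure D3:**
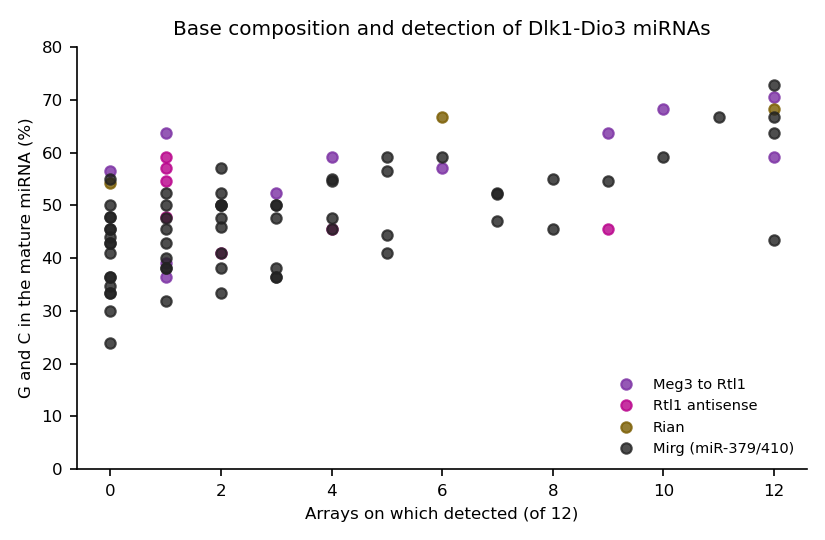
Share of G and C in the mature miRNA (y axis, %) against the number of arrays on which it was detected (x axis, of 12), 1 point for each of 84 members, coloured by the transcript assigned to its miRNA number. On no array the shares run from 23.8% to 56.5%, and on all 12 they are 59.1% or more except for miR-494-3p at 43.5%.

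Levels were compared on normalized log2 intensities between all pairs of the 4 sources. A linear model with moderated variances (limma) was fitted to the 387 probes detected on all 3 arrays of at least 1 source, and p-values were adjusted over these probes with a threshold of 0.05. This admitted 32 of the 86 members, 14 of them only through MH-EVs. Of these 32, 15 passed in at least 1 comparison and 17 in none. Between Thy1-EVs and SH-EVs 2 of the 32 members passed, both higher in Thy1-EVs. That is 6.25%, beside 14.5% of all probes tested, which split into 6.98% higher and 7.49% lower. Between Thy1-EVs and MSC-EVs 8 members were higher in Thy1-EVs and 1 was lower, in all 28.1%, beside 23.5% of all probes (12.9% higher and 10.6% lower). In MSC-EVs 1 member exceeded SH-EVs and 5 fell short of them, in all 18.8%, beside 27.6% of all probes (12.1% higher and 15.5% lower). From MH-EVs, 6 members differed in Thy1-EVs (18.8%), 5 upwards and 1 downwards, beside 30.0% of all probes (14.5% and 15.5%). In MSC-EVs 9 differed from MH-EVs (28.1%), 2 upwards and 7 downwards, beside 35.4% of all probes (14.7% and 20.7%). In SH-EVs 4 did (12.5%), 2 in each direction, beside 32.6% of all probes (15.0% and 17.6%). The share of members that passed was thus below that of all probes except in Thy1-EVs against MSC-EVs. There it was somewhat above, at 28.1% beside 23.5%, with 8 of the 32 members higher beside 12.9% of all probes. These shares are no result about the cluster as a group. The median log2 fold change of the 32 members was 0.09, 0.16 and -0.06 in Thy1-EVs against SH-EVs, Thy1-EVs against MSC-EVs and MSC-EVs against SH-EVs, and that of all probes -4.53e-05, 0.08 and -0.09. In Thy1-EVs, MSC-EVs and SH-EVs against MH-EVs it was -0.004, -0.14 and -0.06 for members and -0.05, -0.12 and -0.06 for all probes. Comparisons that share a source share its arrays. Fewer vesicles carrying an miRNA and less of it per vesicle cannot be told apart.

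**Figure D4:**
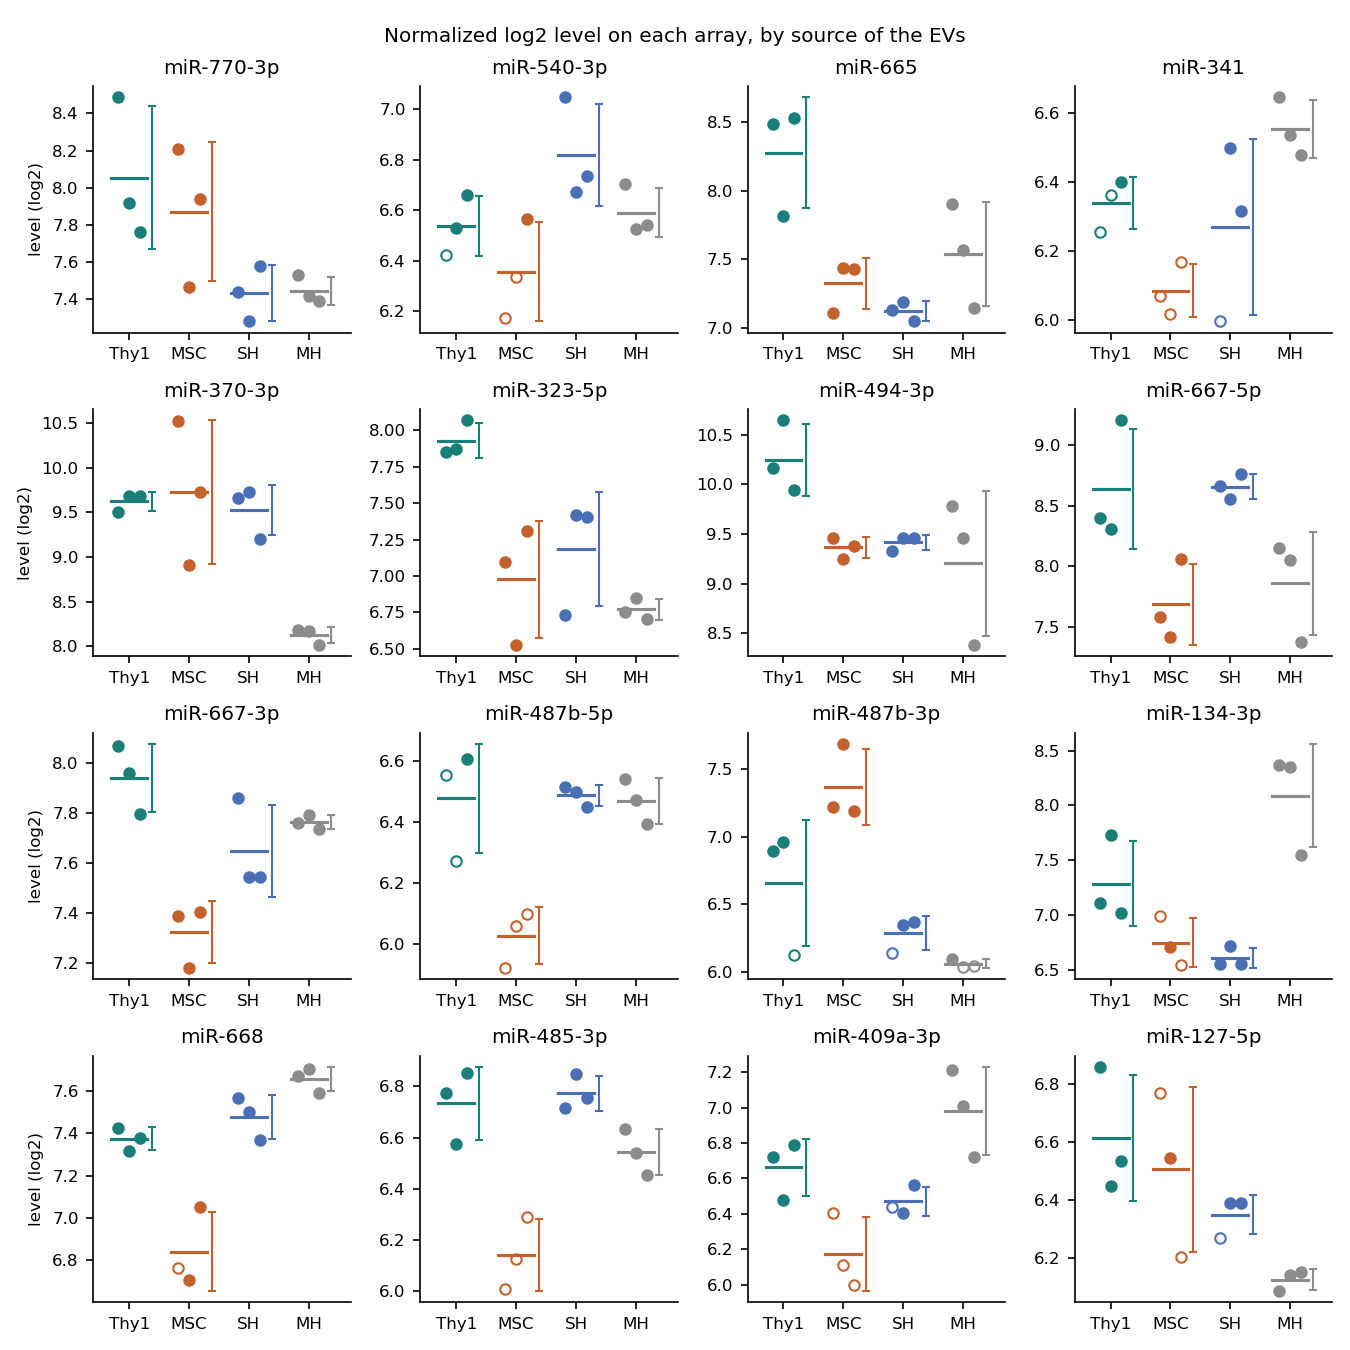
Normalized log2 level (y axis, with its own range in each panel) on each array, by EV source (x axis), for the 15 members that passed in at least 1 comparison and miR-770-3p. Filled points were detected and open points were not, the horizontal line is the mean of 3 arrays and the bar beside it the SD: miR-370-3p is lowest and miR-134-3p highest in MH-EVs, and 8 of the 16 panels have their lowest mean in MSC-EVs, all under quantile normalization. The panels were picked by passing or by detection, and this count was not made over all probes. Of all probes tested, more were also lower than higher in MSC-EVs, against SH-EVs (15.5% and 12.1%) and MH-EVs (20.7% and 14.7%).

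Among the members in and after Meg3, miR-665 had its highest mean in Thy1-EVs under quantile normalization. Its log2 level was 8.49, 7.81 and 8.53 in Thy1-EVs and 7.13, 7.19 and 7.05 in SH-EVs. It was 7.11, 7.44 and 7.43 in MSC-EVs and 7.90, 7.57 and 7.15 in MH-EVs. The Thy1-EV arrays thus lay above all SH-EV and MSC-EV arrays, but the second Thy1-EV array lay below the first of MH-EVs. The log2 fold change of Thy1-EVs was 1.15 ± 0.22 (SE) against SH-EVs, or 2.23-fold (limma, adjusted p = 0.00556), 0.95 ± 0.22 against MSC-EVs (adjusted p = 0.011) and 0.74 ± 0.22 against MH-EVs (adjusted p = 0.0285). The difference from MH-EVs turned to -1.87 with the spike-in spots and to -0.74 in the authors' normalized intensities, and was lost on leaving out 4 of the 6 arrays in turn. Those from SH-EVs and MSC-EVs passed whichever array compared was left out and kept their direction under all 5 other scalings. Under these scalings, however, the difference from SH-EVs passed in only 2 and that from MSC-EVs in only 1. MiR-770-3p, from a hairpin within Meg3, was 8.49, 7.92 and 7.76 in Thy1-EVs and 8.21, 7.47 and 7.94 in MSC-EVs. It was 7.44, 7.28 and 7.58 in SH-EVs and 7.53, 7.41 and 7.39 in MH-EVs. All Thy1-EV arrays exceeded all SH-EV and MH-EV arrays, yet the log2 fold changes of 0.62 ± 0.21 and 0.61 ± 0.21 did not pass (adjusted p = 0.0825 and 0.0537). With the replicate number as a block, both passed (adjusted p = 0.0397 and 0.0282). MiR-540-3p was detected on 3 arrays of SH-EVs and of MH-EVs, on 2 of Thy1-EVs and on 1 of MSC-EVs. It was 6.17, 6.33 and 6.56 in MSC-EVs and 7.05, 6.67 and 6.73 in SH-EVs. Its levels were 6.42, 6.53 and 6.66 in Thy1-EVs and 6.70, 6.53 and 6.54 in MH-EVs. The SH-EV arrays lay above all Thy1-EV and MSC-EV arrays. It was lower in MSC-EVs than in SH-EVs, with a log2 fold change of -0.46 ± 0.14 (adjusted p = 0.032).

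On the Rtl1 antisense strand, miR-127-5p, the other arm of miR-127-3p, passed in 1 comparison. It was 6.86, 6.45 and 6.53 in Thy1-EVs and 6.08, 6.14 and 6.15 in MH-EVs. Its levels were 6.77, 6.54 and 6.20 in MSC-EVs, which overlapped Thy1-EVs, and 6.27, 6.39 and 6.39 in SH-EVs. The log2 fold change of Thy1-EVs against MH-EVs was 0.49 ± 0.15 (adjusted p = 0.0338), with all Thy1-EV arrays above all MH-EV arrays. It was detected on all Thy1-EV and MH-EV arrays, but only 1 of these 6 exceeded the 95th percentile of the spots without a probe. The difference was lost on leaving out 5 of the 6 arrays in turn and turned to -1.55 with the spike-in spots. MiR-433-5p, detected on 9 arrays, passed in no comparison (smallest adjusted p = 0.0688).

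In Rian, miR-370-3p was lower in MH-EVs than in every other source. In human hepatoma cells this miRNA is known to act on lipid metabolism and on the level of miR-122. It was 9.51, 9.69 and 9.69 in Thy1-EVs and 9.66, 9.73 and 9.21 in SH-EVs. It was 10.53, 8.91 and 9.73 in MSC-EVs and 8.18, 8.17 and 8.02 in MH-EVs. Every array of the other sources lay above every MH-EV array, while Thy1-EVs, MSC-EVs and SH-EVs overlapped. The log2 fold changes against MH-EVs were 1.51 ± 0.32, 1.60 ± 0.32 and 1.41 ± 0.32 in Thy1-EVs, MSC-EVs and SH-EVs, or 2.84-, 3.04- and 2.65-fold (adjusted p = 0.00463, 0.00238 and 0.00612), but all 3 turned to lower under scaling to the spike-in spots and in the authors' normalized intensities. Relative to the median of all probes they stayed positive in every scaling, at 0.95 to 1.76, 0.46 to 1.84 and 0.85 to 1.59. The median, 75th percentile and spike-in scalings shift all probes of an array alike, so their relative values are identical and not separate checks. MiR-341 was detected on no MSC-EV array and on all MH-EV arrays, and was lower in MSC-EVs (means 6.09 and 6.55, adjusted p = 0.0177, or 0.0182 with no filter on dim probes), with no fold because the lowest detectable level of the MSC-EV arrays lay above the MH-EV mean. Scaling to the median or the 75th percentile of the common probes turned this direction. MiR-341 was admitted to the test only through MH-EVs, where it is high, so its passing there is not independent of the filter.

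In the miR-379 to miR-410 group, miR-323-5p had its highest mean in Thy1-EVs under quantile normalization. It was 7.85, 7.87 and 8.07 in Thy1-EVs and 6.73, 7.42 and 7.40 in SH-EVs. It was 7.09, 6.53 and 7.31 in MSC-EVs and 6.75, 6.85 and 6.71 in MH-EVs. No array of another source reached the lowest Thy1-EV array. The log2 fold change of Thy1-EVs was 0.74 ± 0.22 against SH-EVs (adjusted p = 0.0465), 0.95 ± 0.22 against MSC-EVs (adjusted p = 0.0102) and 1.16 ± 0.22 against MH-EVs (adjusted p = 0.00261). The difference from SH-EVs passed under none of the 5 other scalings, nor without any 1 of the 6 arrays, nor without the filter on dim probes (adjusted p = 0.0724), and that from MH-EVs turned to -1.13 with the spike-in spots. MiR-494-3p was 10.16, 10.64 and 9.94 in Thy1-EVs and 9.78, 9.46 and 8.38 in MH-EVs. It was 9.46, 9.25 and 9.38 in MSC-EVs and 9.33, 9.46 and 9.46 in SH-EVs. All Thy1-EV arrays lay above all others, and the MH-EV arrays spread over the range of MSC-EVs and SH-EVs and beyond it on both sides. Only the difference from MH-EVs passed, with a log2 fold change of 1.04 ± 0.30 (adjusted p = 0.024), while those from SH-EVs and MSC-EVs were 0.83 ± 0.30 and 0.88 ± 0.30 (adjusted p = 0.0967 and 0.0579).

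Both arms of miR-667 were lower in MSC-EVs than in Thy1-EVs. MiR-667-5p was 8.40, 8.31 and 9.21 in Thy1-EVs and 7.58, 7.42 and 8.06 in MSC-EVs. It was 8.66, 8.55 and 8.76 in SH-EVs and 8.15, 8.05 and 7.37 in MH-EVs. For MSC-EVs against SH-EVs the log2 fold change was -0.97 ± 0.27 (adjusted p = 0.0223), that of Thy1-EVs against MSC-EVs 0.95 ± 0.27 (adjusted p = 0.029) and that of SH-EVs against MH-EVs 0.80 ± 0.27 (adjusted p = 0.0453, or 0.0741 with no filter on dim probes). Thy1-EVs and SH-EVs overlapped, at -0.02 ± 0.27 (adjusted p = 0.964). MiR-667-3p was 8.07, 7.96 and 7.80 in Thy1-EVs and 7.39, 7.18 and 7.40 in MSC-EVs. It was 7.86, 7.54 and 7.54 in SH-EVs and 7.76, 7.79 and 7.74 in MH-EVs. Every MSC-EV array lay below every array of the other sources. Its log2 fold change was 0.61 ± 0.12 for Thy1-EVs against MSC-EVs (adjusted p = 0.00549) and -0.44 ± 0.12 for MSC-EVs against MH-EVs (adjusted p = 0.0183).

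In MSC-EVs the arms of miR-487b differed from the other sources in opposite directions. MiR-487b-3p was 7.22, 7.69 and 7.19 in MSC-EVs and 6.89, 6.96 and 6.12 in Thy1-EVs. It was 6.14, 6.35 and 6.37 in SH-EVs and 6.09, 6.04 and 6.04 in MH-EVs. The lowest MSC-EV array exceeded all 9 others. The log2 fold change of MSC-EVs was 1.08 ± 0.21 against SH-EVs (adjusted p = 0.00296) and 1.31 ± 0.21 against MH-EVs (adjusted p = 0.000788), and that of Thy1-EVs against MSC-EVs -0.71 ± 0.21 (adjusted p = 0.0349). Thy1-EVs against MH-EVs, at an adjusted p of 0.0562, passed only with the replicate number as a block (adjusted p = 0.0439). It was admitted to the test only through MSC-EVs, where it is high, so its passing is not independent of the filter. With no filter on dim probes the adjusted p was 0.00448 against SH-EVs, 0.00113 against MH-EVs and 0.0519 between Thy1-EVs and MSC-EVs, and with the spike-in spots the difference from MH-EVs turned to -1.15. It was detected on all 3 MSC-EV arrays, yet only 1 of them exceeded the 95th percentile of the spots without a probe. MiR-487b-5p was 5.92, 6.06 and 6.10 in MSC-EVs and 6.51, 6.50 and 6.45 in SH-EVs. It was 6.55, 6.27 and 6.61 in Thy1-EVs and 6.54, 6.47 and 6.39 in MH-EVs. All MSC-EV arrays were the lowest, and none detected it, so no fold is given. The adjusted p was 0.0161 against Thy1-EVs, of which 1 array detected it, 0.0118 against SH-EVs and 0.0115 against MH-EVs, and all 3 directions turned when arrays were scaled to the median or 75th percentile of the common probes.

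MiR-668, miR-485-3p and miR-409a-3p also had their lowest means in MSC-EVs. MiR-668 was 6.76, 6.70 and 7.05 in MSC-EVs and 7.43, 7.32 and 7.38 in Thy1-EVs. It was 7.57, 7.50 and 7.37 in SH-EVs and 7.67, 7.70 and 7.59 in MH-EVs. The MSC-EV arrays, of which 2 detected it, lay below all 9 others. In MSC-EVs the log2 fold change was -0.64 ± 0.12 against SH-EVs (adjusted p = 0.002) and -0.82 ± 0.12 against MH-EVs (adjusted p = 0.000292), and that of Thy1-EVs against MSC-EVs 0.53 ± 0.12 (adjusted p = 0.00758). MiR-485-3p was detected on all arrays of the other sources and on none of MSC-EVs, where it was 6.01, 6.12 and 6.29. It was 6.78, 6.58 and 6.85 in Thy1-EVs (mean 6.73), 6.72, 6.85 and 6.75 in SH-EVs (mean 6.77) and 6.63, 6.54 and 6.46 in MH-EVs (mean 6.54). On the quantile-normalized scale and against the lowest detectable level of the MSC-EV arrays, it was at least 1.02-fold higher in Thy1-EVs (adjusted p = 0.00452) and at least 1.05-fold higher in SH-EVs (adjusted p = 0.00206), with no fold for MH-EVs (adjusted p = 0.0195). These are no bounds on other scales, since scaling to the median of the common probes turned all 3 directions and their 75th percentile those from Thy1-EVs and MH-EVs. MiR-409a-3p was 7.21, 7.01 and 6.72 in MH-EVs and 6.72, 6.48 and 6.79 in Thy1-EVs. It was 6.44, 6.41 and 6.56 in SH-EVs and 6.41, 6.11 and 5.998 in MSC-EVs. No MSC-EV array detected it, and on the same scale it was at least 1.22-fold higher in MH-EVs (adjusted p = 0.00211) and higher in Thy1-EVs with no fold (adjusted p = 0.0426, or 0.0542 with no filter on dim probes). Both directions turned with the median and the 75th percentile of the common probes, so the bound holds on the quantile-normalized scale only. SH-EVs were lower than MH-EVs by a log2 fold change of -0.51 ± 0.16 (adjusted p = 0.0274).

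MiR-134-3p was highest in MH-EVs. It was 8.37, 8.35 and 7.54 in MH-EVs and 7.11, 7.73 and 7.01 in Thy1-EVs. It was 6.55, 6.71 and 6.56 in SH-EVs and 6.99, 6.70 and 6.54 in MSC-EVs. The MH-EV arrays lay above all SH-EV and MSC-EV arrays and overlapped 1 Thy1-EV array. Against MH-EVs the log2 fold change was -1.48 ± 0.25 in SH-EVs, -1.35 ± 0.25 in MSC-EVs and -0.81 ± 0.25 in Thy1-EVs (adjusted p = 0.000979, 0.00156 and 0.0305). All 3 kept their direction under each of the 5 other scalings. MiR-134-5p passed in no comparison, with log2 fold changes of -0.13 to 0.06.

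**Figure D5:**
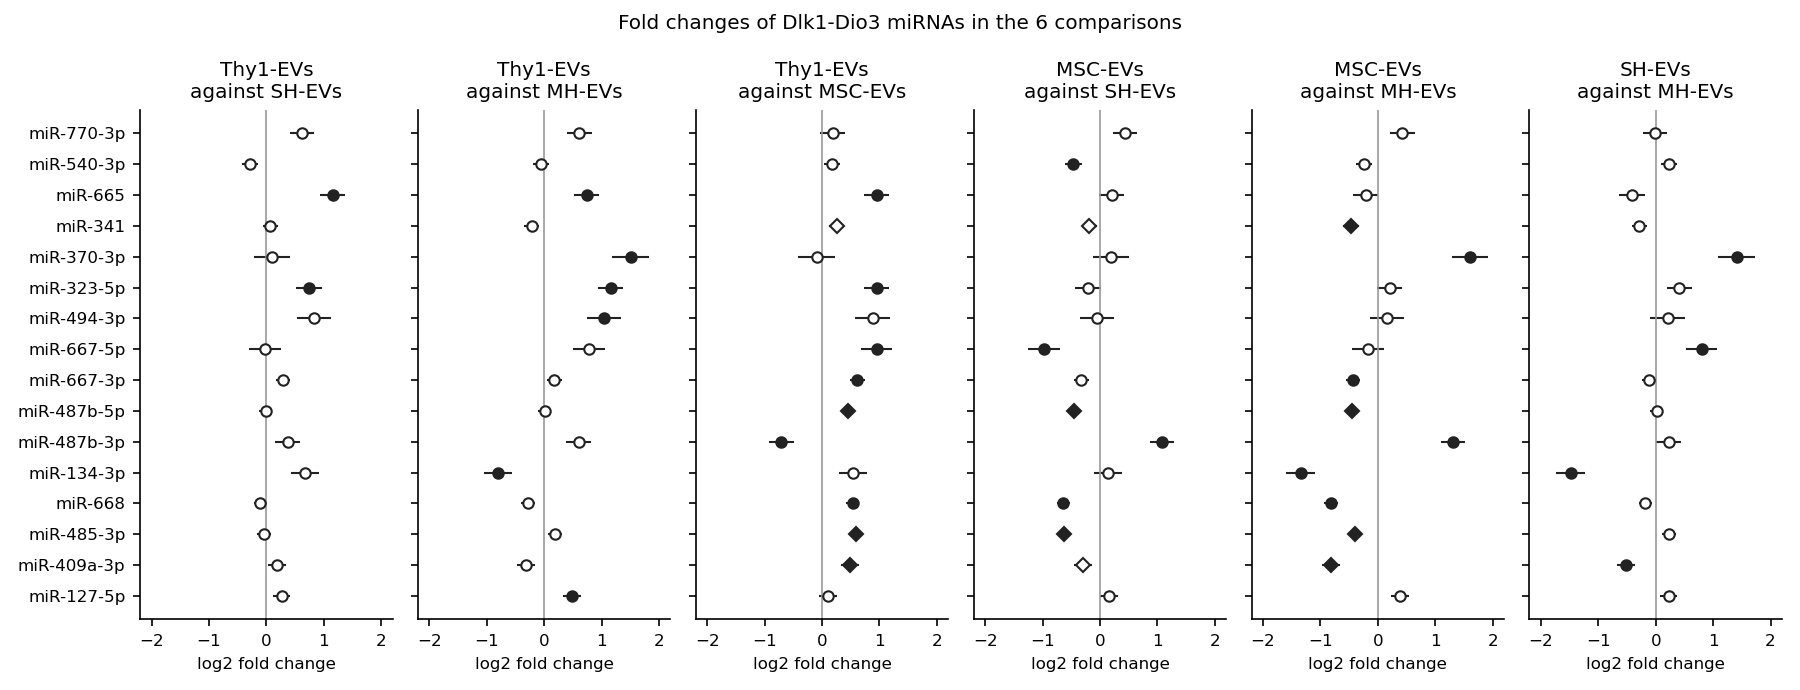
Log2 fold changes (x axis) of the 15 members that passed in at least 1 comparison and of miR-770-3p (y axis), with a panel for each comparison. Filled symbols passed and open ones did not, bars are the SE, and diamonds mark pairs in which 1 source had no array that detected the member, whose fitted value is no measured fold: under quantile normalization, filled symbols put MSC-EVs below the other source except for miR-370-3p and miR-487b-3p.

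The remaining 17 members tested passed in none of the 6 comparisons, with log2 fold changes from -0.60 to 0.67 and a smallest adjusted p of 0.0537. Besides miR-770-3p they were miR-770-5p, miR-673-3p, miR-493-3p and miR-337-5p near Meg3, miR-433-5p and miR-434-3p in Rtl1 antisense, and miR-134-5p, miR-329-3p, miR-381-3p, miR-409b, miR-412-3p, miR-485-5p and the 4 arms of miR-299a and miR-299b in the miR-379 to miR-410 group. In that group miR-409b and the arms of miR-299b lie on the strand opposite to Mirg. This does not show that they were equal. The 54 members not tested had raw intensities of 0.84 to 1.75 times the mean of the blank spots. Of these, 34 were detected on at least 1 array and none on more than 4.

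Many of these directions changed with the scaling of the arrays. Across quantile normalization and 5 other scalings, the median log2 fold change of all probes ran from -0.20 to 0.10 in Thy1-EVs against SH-EVs, -0.60 to 0.33 in Thy1-EVs against MSC-EVs and -0.39 to 0.43 in MSC-EVs against SH-EVs. Against MH-EVs it ran from -2.22 to 0.76 in Thy1-EVs, -2.60 to 1.31 in MSC-EVs and -2.23 to 0.91 in SH-EVs. In Thy1-EVs against MH-EVs, the 5 members higher and 1 lower became 11 and 0 with arrays scaled to the median of the common probes, 6 and 0 with their 75th percentile, 0 and 32 with the spike-in spots and 0 and 13 in the authors' normalized intensities. Of all 387 probes tested, 56 higher and 60 lower became 91 and 30, 67 and 22, 1 and 363, and 9 and 217. In MSC-EVs against MH-EVs, 2 and 7 members became 24 and 0, 24 and 0, 0 and 32, and 1 and 19 in the same order. Over all probes, 57 and 80 became 214 and 39, 240 and 24, 1 and 373, and 14 and 249. In SH-EVs against MH-EVs, 2 and 2 members became 6 and 1, 10 and 0, 0 and 32, and 0 and 17. Over all probes, 58 and 68 became 73 and 40, 123 and 19, 0 and 360, and 14 and 218. The array as a whole thus moved with the scaling, and these counts are no result about the cluster. Among single members, miR-665, miR-370-3p and miR-494-3p in Thy1-EVs miR-370-3p in MSC-EVs, and miR-370-3p and miR-667-5p in SH-EVs turned from higher to lower against MH-EVs under scaling to the spike-in spots and in the authors' normalized intensities. MiR-323-5p and miR-127-5p in Thy1-EVs and miR-487b-3p in MSC-EVs did so under the spike-in spots alone. Scaling to the median or the 75th percentile of the common probes turned miR-487b-5p, miR-485-3p and miR-409a-3p in Thy1-EVs against MSC-EVs, and the 75th percentile miR-668 there. In MSC-EVs both turned miR-540-3p and miR-487b-5p against SH-EVs and miR-341, miR-667-3p, miR-487b-5p, miR-485-3p and miR-409a-3p against MH-EVs. The median alone turned miR-485-3p in MSC-EVs against SH-EVs, and the 75th percentile alone miR-668 in MSC-EVs and, both against MH-EVs, miR-409a-3p in SH-EVs. Of the 36 differences that passed, 13 kept their direction under all 5 other scalings and none passed under all of them. Relative to the median of all probes, 34 of the 36 stayed on their side under all 5, the exceptions being miR-487b-5p in MSC-EVs against SH-EVs and against MH-EVs. The median, 75th percentile and spike-in scalings shift all probes of an array alike, so their relative values are identical and not separate checks. The 36 were also picked by passing, so this is no independent support. Without the MH-EV arrays in normalization and fit, a setting added after seeing the data, only 18 members among 275 probes were tested. Of these 18, 3 members passed in Thy1-EVs against SH-EVs, 11 in Thy1-EVs against MSC-EVs and 5 in MSC-EVs against SH-EVs. The same counts over the 275 probes are not given, so this is no result about the cluster.

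Of the 36 differences, 20 passed whichever of the 6 arrays compared was left out. That of miR-323-5p between Thy1-EVs and SH-EVs was lost without any 1 of them (adjusted p = 0.0611 to 0.119), as was that of miR-667-5p between SH-EVs and MH-EVs (0.0519 to 0.131). Between Thy1-EVs and MH-EVs, 4 left-out arrays each ended the calls of miR-665 and miR-134-3p and 5 that of miR-127-5p, with the first and the third Thy1-EV arrays and the second MH-EV array among them each time, the first MH-EV array for miR-134-3p and miR-127-5p and the third for miR-665 and miR-127-5p, and 2 ended that of miR-494-3p, the first and second Thy1-EV arrays (adjusted p up to 0.103, 0.120, 0.121 and 0.0959). Without the first Thy1-EV array 2 members passed there in place of 6, and without the second MH-EV array 3. Between Thy1-EVs and MSC-EVs, 5 members passed in place of 9 without the third Thy1-EV array, which ended the calls of miR-667-5p, miR-487b-5p, miR-487b-3p and miR-409a-3p (adjusted p = 0.0991, 0.0645, 0.0933 and 0.132). Leaving out the second MSC-EV array also ended 3 of these, with miR-487b-5p kept, the first MSC-EV array that of miR-667-5p, and the first Thy1-EV array and the third MSC-EV array that of miR-409a-3p (adjusted p = 0.0707 to 0.141). Between MSC-EVs and SH-EVs, miR-540-3p and miR-667-5p were lost without the first or second MSC-EV array or the third SH-EV array, and miR-540-3p also without the first SH-EV array (adjusted p up to 0.0980 and 0.0723). Between MSC-EVs and MH-EVs, leaving out the first MH-EV array ended the calls of miR-341, miR-667-3p and miR-485-3p (adjusted p = 0.0691, 0.0533 and 0.0798). The second MH-EV array did so for the latter 2, the second MSC-EV array for miR-667-3p and the first for miR-485-3p (adjusted p up to 0.0611). Between SH-EVs and MH-EVs, miR-409a-3p was lost without any of the 6 arrays except the third of MH-EVs (adjusted p up to 0.121). There 2 members passed in place of 4 without the second or the third SH-EV array or the first or second MH-EV array, and between Thy1-EVs and SH-EVs 1 in place of 2 without the first or second Thy1-EV array or any SH-EV array.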

How the data were processed

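The miRNAs of EVs were labelled with Cy3 and measured on 3D-Gene miRNA Oligo Chips with probes for 727 mature rat miRNAs of miRBase release 20, with 1 EV sample per array. The authors deposited for each array each probe's raw intensity, its background-subtracted intensity and an intensity they had normalized, and a combined table of the last, which served only as a check. The values show a background equal to the mean of 1504 blank spots without 5% at either end, and subtracted values are listed where the raw intensity exceeds it by 2 SD, a limit from which 6 of 8724 values departed, by at most 0.086 intensity units. Scanner, slide, scan date and the EV and RNA input to each array were not stated, and the number of arrays limits the precision.

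In R 4.3.3 with limma 3.58.1, normexp (offset 50) removed the blank-spot background from raw values, and all 12 arrays were then quantile-normalized and log2-transformed. The 2 values that carried a flag were dropped. Probes detected on all 3 arrays of at least 1 source were tested (387 of 727) with 1 mean per source over all 12 arrays, and every adjusted p in the text is from this limma model or the alternative named, by the Benjamini-Hochberg method. A member detected on no array of a source has a bounded fold only, for which each array's lowest detected level, or the member's own if higher, stands in. The members, the transcript to which each is assigned and the marker lists were chosen with earlier results of these data known. All members may be named, with full values for those that passed or were detected on all 12 arrays. Sequences, their order and G and C content are from RefSeq (GRCr8), and miR-127-5p and miR-136-5p had none there. The model was run on simulated data with independent random spread around each probe's mean and changes in Thy1-EVs only. These data held no scaling shift and no detection limit, so the run does not bear on either. Alternatives were other background corrections, scalings, filters, variance models and arrays, the authors' normalized intensities, the methods' t-test and a replicate block.

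Replicate numbers occur in the labels, and no source says what they stand for. Deviations of equally numbered arrays from their source's mean were positively correlated in all 3 pairs for Thy1-EVs and MH-EVs only (correlations of 0.313, 0.204 and 0.323). These cells came from different animals, injured and healthy, so a shared number there is no shared animal.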

Additional observations from a re-analysis of the deposited data

How the results depend on the processing

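The number of members that passed depended on how the arrays were put on a common scale. In the order Thy1-EVs against SH-EVs, MH-EVs and MSC-EVs, MSC-EVs against SH-EVs and MH-EVs, and finally SH-EVs against MH-EVs, it was 2, 6, 9, 6, 9 and 4 under quantile normalization. In the same order it was 1, 11, 1, 2, 24 and 7 with the median of the common probes, 0, 6, 0, 1, 24 and 10 with their 75th percentile, 0, 32, 1, 1, 32 and 32 with the spike-in spots, 1, 5, 2, 2, 9 and 8 with cyclic loess and 0, 13, 7, 5, 20 and 17 in the authors' normalized intensities. The array as a whole moved too. With the spike-in spots, 363, 373 and 360 of all 387 probes tested were lower in Thy1-EVs, MSC-EVs and SH-EVs than in MH-EVs. Under quantile normalization 60, 80 and 68 were. The member counts are thus no result about the cluster. Restricted to probes detected on all 12 arrays, the number of members that passed was 2, 5, 5, 1, 1 and 2, with fewer members tested. For Thy1-EVs against SH-EVs it was 1 with plain subtraction and 1 without the filter. The methods' t-test gave 7, 8, 10, 8, 11 and 11 members unadjusted and 0, 5, 0, 4, 7 and 4 after Benjamini-Hochberg adjustment. Without 1 array at a time the counts ran from 1 to 2, 2 to 6, 5 to 9, 4 to 7, 6 to 11 and 2 to 4. With detection set at the 95th percentile of the spots without a probe, 8, 3, 8 and 18 members were detected on all 3 arrays of Thy1-EVs, MSC-EVs, SH-EVs and MH-EVs. These are 9.3%, 3.5%, 9.3% and 20.9% of the members, beside 21.6%, 14.7%, 25.9% and 38.9% of all probes.

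With the replicate number as a block, 4 members passed between Thy1-EVs and SH-EVs, with miR-770-3p and miR-134-3p added (adjusted p = 0.0397 and 0.0428). MiR-770-3p and miR-487b-3p were added in Thy1-EVs against MH-EVs (0.0282 and 0.0439) and miR-494-3p in Thy1-EVs against MSC-EVs (0.0428), and miR-667-5p was lost between SH-EVs and MH-EVs (0.0543). The block changed no other call.

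Of the log2 differences of single members that passed, those that changed sign did so only with a scaling. Spike-in spots gave, against MH-EVs, -1.87 for miR-665, -1.27 for miR-370-3p, -1.13 for miR-323-5p, -1.79 for miR-494-3p and -1.55 for miR-127-5p in Thy1-EVs, -2.15 for miR-370-3p and -1.15 for miR-487b-3p in MSC-EVs, and -1.38 for miR-370-3p and -1.75 for miR-667-5p in SH-EVs. The authors' normalized intensities gave -0.74 for miR-665, -0.057 for miR-370-3p and -0.62 for miR-494-3p in Thy1-EVs, -0.77 for miR-370-3p in MSC-EVs, and -0.21 for miR-370-3p and -0.60 for miR-667-5p in SH-EVs. The median and the 75th percentile gave, for Thy1-EVs against MSC-EVs, -0.15 and -0.39 for miR-487b-5p, -0.011 and -0.25 for miR-485-3p and -0.090 and -0.33 for miR-409a-3p, and for MSC-EVs against SH-EVs 0.19 and 0.14 for miR-540-3p and 0.26 and 0.20 for miR-487b-5p. For MSC-EVs against MH-EVs they gave 0.83 and 1.19 for miR-341, 0.046 and 0.41 for miR-667-3p, 0.90 and 1.26 for miR-487b-5p, 0.89 and 1.25 for miR-485-3p and 0.30 and 0.66 for miR-409a-3p. The median alone gave 0.030 for miR-485-3p in MSC-EVs against SH-EVs. The 75th percentile alone gave -0.10 for miR-668 in Thy1-EVs against MSC-EVs, 0.27 for miR-668 in MSC-EVs against MH-EVs and 0.32 for miR-409a-3p in SH-EVs against MH-EVs. The cause was not tested.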
